A study of Mus musculus with 2 samples.

Results

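In polyadenylated RNA of adult mouse liver, 3813 pairs of transcribed stretches lay on opposite strands of the same DNA. The stretches are contigs, runs of bases on 1 strand that the authors assembled from reads and gave a level per base. A contig entered when it was shorter than 5000 bases, had a reproducibility score of at most 0.1, and overlapped another such contig on the opposite strand by 200 bases or more. Of 411452 contigs listed, 200721 met the length and score limits. The pairs were built from 7075 of these, 3542 on the plus strand and 3533 on the minus strand, which is 4.44% of the 159356 eligible contigs of 200 bases or more. The members were thus chosen by position, strand, length and score, so their overlap is the selection and not a result. The levels within pairs are given as a description, with no test, because each contig has a single level for the whole series.

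The tissue was liver of 8-week-old C57BL/6J mice, an inbred laboratory strain, pooled from littermates of both sexes, with no treatment named in the labels. There was 1 group of 2 libraries, labelled biological replicates 1 and 2, and so no contrast between conditions. Both libraries carry the same donor identifier, and the labels do not tell whether separate animals were used. Libraries were strand-specific paired reads of poly-A RNA with spike-in controls.

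Genes on opposite strands can share DNA in several ways. Divergent neighbours may start from a common promoter region and overlap at their first exons (head-to-head), convergent neighbours may run into each other at their last exons (tail-to-tail), and a short antisense transcript may lie wholly inside another gene (nested). Natural antisense transcripts of these kinds are known in many mammalian tissues, and some are known to affect the chromatin, splicing or stability of the RNA they face.

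The gene tables held 59676348 and 60600114 estimated reads in replicates 1 and 2, and the listed junctions had 24692822 and 25796894 spliced reads in libraries called R1 and R2 (their link to replicates 1 and 2 is unknown here). The hepatocyte markers Alb, Ttr and Apoa1 were the most abundant of the marker genes, with Alb, the gene of serum albumin, at 32113 and 34763 TPM and Apoa1, of apolipoprotein A-I, at 6369 and 7233 TPM. The other hepatocyte markers were lower, with Cps1 at 642 and 641 TPM and Hnf4a at 263 and 224 TPM. Markers of the other cell types were lower still, from 0.37 TPM for the cholangiocyte marker Epcam in replicate 2 to 76.3 TPM for the stellate marker Dcn. The exceptions were the red cell globins Hba-a1 and Hbb-bs, which lay between 299 and 655 TPM, above Hnf4a. The pancreas markers Cela2a and Ctrb1 were at 1.61 to 4.40 TPM.

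Promoters of genes that are annotated head-to-head and named on both contigs of a pair are shown first, because their annotated starts lie close together on opposite strands. The contigs of such genes need not be head-to-head themselves, and those of Ssr4, Prelid1 and Btd were nested with those of their partners. The windows run from 250 bases before to 50 bases after the annotated start, 5′ to 3′ on the gene's own strand, from RefSeq on GRCm38.p6. Capitals mark the letters CCGGAAG, the core of many ETS factor sites, or their reverse complement CTTCCGG. They belong to Romo1 (chr2:156143983-156144282, plus strand), Nfs1 (chr2:156144137-156144436, minus strand), Ssr4 (chrX:73786773-73787072, plus strand), Prelid1 (chr13:55321805-55322104, plus strand), Surf2 (chr2:26916158-26916457, plus strand) and Btd (chr14:31640807-31641106, plus strand).
Romo1: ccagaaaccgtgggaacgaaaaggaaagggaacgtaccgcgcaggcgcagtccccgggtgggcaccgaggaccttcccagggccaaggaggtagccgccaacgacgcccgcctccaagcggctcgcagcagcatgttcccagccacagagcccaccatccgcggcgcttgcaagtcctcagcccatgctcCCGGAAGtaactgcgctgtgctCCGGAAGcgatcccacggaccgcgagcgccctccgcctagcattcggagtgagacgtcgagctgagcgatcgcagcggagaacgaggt
Nfs1: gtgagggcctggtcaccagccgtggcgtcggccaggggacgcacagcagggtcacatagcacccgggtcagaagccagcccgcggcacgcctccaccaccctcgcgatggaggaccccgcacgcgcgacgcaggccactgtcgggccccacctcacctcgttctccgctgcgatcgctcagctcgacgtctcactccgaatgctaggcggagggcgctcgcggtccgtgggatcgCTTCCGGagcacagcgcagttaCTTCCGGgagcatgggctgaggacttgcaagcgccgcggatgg
Ssr4: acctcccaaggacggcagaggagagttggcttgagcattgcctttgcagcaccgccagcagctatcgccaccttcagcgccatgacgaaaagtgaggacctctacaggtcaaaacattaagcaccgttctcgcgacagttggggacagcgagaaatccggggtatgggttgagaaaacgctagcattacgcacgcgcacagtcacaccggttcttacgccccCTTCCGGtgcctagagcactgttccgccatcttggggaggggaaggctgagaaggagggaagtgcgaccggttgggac
Prelid1: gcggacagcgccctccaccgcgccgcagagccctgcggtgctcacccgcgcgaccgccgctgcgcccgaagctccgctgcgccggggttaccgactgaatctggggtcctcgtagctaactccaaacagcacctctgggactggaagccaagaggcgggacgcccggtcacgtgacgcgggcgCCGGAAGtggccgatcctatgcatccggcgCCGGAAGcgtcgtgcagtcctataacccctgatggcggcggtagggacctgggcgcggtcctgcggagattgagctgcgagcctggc
Surf2: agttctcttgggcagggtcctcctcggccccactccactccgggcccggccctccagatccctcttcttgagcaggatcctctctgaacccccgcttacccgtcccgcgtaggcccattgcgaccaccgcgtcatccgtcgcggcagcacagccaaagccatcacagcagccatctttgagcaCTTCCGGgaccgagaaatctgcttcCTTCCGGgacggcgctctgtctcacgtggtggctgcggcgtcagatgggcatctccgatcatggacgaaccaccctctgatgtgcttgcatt
Btd: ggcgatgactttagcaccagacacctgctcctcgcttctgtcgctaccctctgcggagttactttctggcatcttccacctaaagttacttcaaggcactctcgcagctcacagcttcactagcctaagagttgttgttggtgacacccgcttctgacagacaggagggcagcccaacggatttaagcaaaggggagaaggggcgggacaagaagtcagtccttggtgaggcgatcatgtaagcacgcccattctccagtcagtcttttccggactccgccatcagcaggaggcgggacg

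The Romo1 and Nfs1 windows share 146 bases, which read as reverse complements of each other. Their RefSeq starts lie 47 bases apart and face away from each other. The contigs of the pair overlapped by 257 bases, and exons of these genes share 148 bases in the GRCm38 annotation. Counting the annotated start base as 0, CCGGAAG stands at -60 and -38 in the Romo1 window, and the same letters read as CTTCCGG at -15 and 7 from the Nfs1 start. The Prelid1 window also holds 2 matches, at -67 and -37, and that of Surf2 holds 2 matches of CTTCCGG at -67 and -42. Ssr4 has a single match at -28. The Btd window, whose gene faces Hacl1 with starts 92 bases apart, holds no match of these letters on either strand, which says only that they are not in this window.

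Over all annotated head-to-head gene pairs among the members, RefSeq starts were found for both genes of 129 pairs. Where a gene had several starts, the starts of the partners that lay closest together were taken. The starts lay within 500 bases of each other in 108 of them, with a median of 78.0 bases from the minus-strand start to the plus-strand start over the 129. In 97 of the 129 the plus-strand start lay downstream of the minus-strand start, so that transcripts from these RefSeq starts would not overlap. Other transcripts can start elsewhere, and in the GRCm38 annotation exons overlap in 105 of the 168 head-to-head gene pairs. The 216 promoters of the 108 close pairs held CCGGAAG on either strand in 35.2%, against 9.12% of all 27025 RefSeq promoters and 19.3% of 8252 promoters of genes at 1 TPM or more in both replicates (TPM is a level per length, scaled to a fixed sum per library). Their median GC content was 65.2%, against 52.7% and 61.0% in those sets. TATAAA on either strand was found in 3.70%, against 14.2% and 7.05%. For CCAAT the shares were 35.2%, 37.9% and 38.7%, and for GCATGCGC, the core of the NRF1 site, they were 5.09%, 2.80% and 5.68%. Windows of facing genes share bases, so the 216 promoters are not independent of each other, and a match is a description of letters, not of binding. Neither comparison set was limited to genes with a close start on the opposite strand or matched in GC content. Whether the differences are particular to the members was not tested.

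The members were mostly isolated pairs of contigs. They fell into 3262 separate clusters of overlapping contigs, 2837 of which were a single pair, while 480 contigs took part in more than 1 pair and the most connected in 5. The median overlap was 343 bases, the middle 50% of overlaps ran from 261 to 488 bases, and the longest was 2670 bases. Contigs in pairs had a median length of 606 bases and a median level of 0.725, against 445 bases and 0.445 for eligible contigs of at least 200 bases in no pair. A longer contig can more easily reach an overlap of 200 bases, so the difference in length is not separate from the selection. A score of 0 was held by 63.5% of the members. On the nuclear chromosomes, the share of eligible contigs that stood in a pair ran from 2.92% on chromosome X, with 48 pairs, to 5.67% on chromosome 17, with 226 pairs, and chromosome 11 held the most pairs, 344.

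The levels within a pair were usually unequal. The higher contig had a median level of 2.02 and the lower of 0.379, and the median ratio of higher to lower was 3.80, with quartiles of 1.84 and 8.57. Levels lay within 2-fold of each other in 1069 pairs, or 28.0%. They were 10-fold or more apart in 804 pairs (21.1%) and 100-fold or more apart in 56 pairs (1.47%). The plus contig was higher in 1923 pairs, the minus contig in 1886, and 4 pairs had equal levels as printed. A level averages over a whole contig and not over the shared bases alone. A median of 91.6% of the lower contig lay inside the overlap, but only 43.6% of the higher one, and the lower contig was wholly inside the higher in 1673 pairs while the opposite held in 557.

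**Figure D1:**
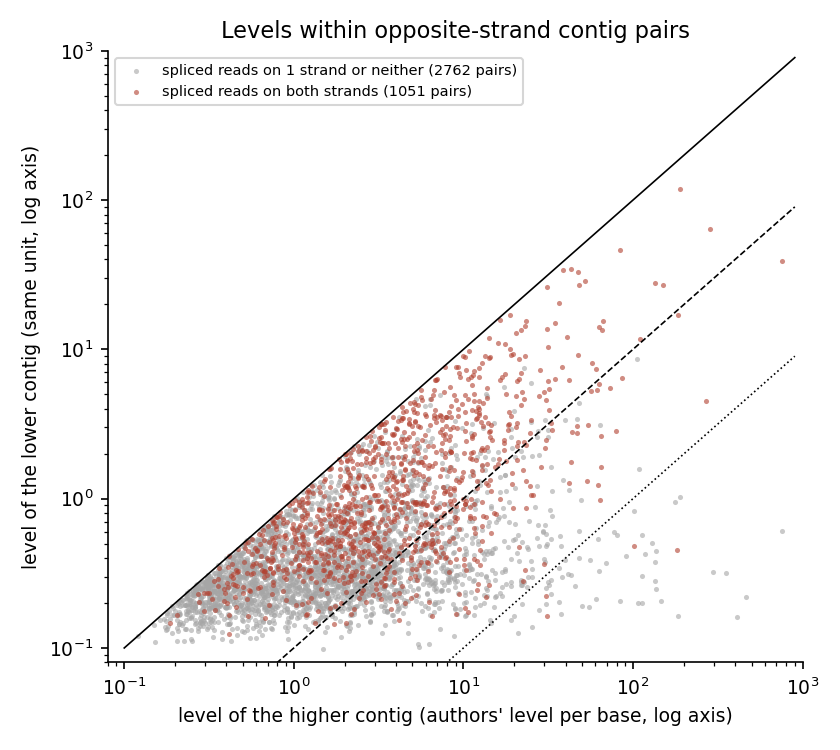
Level of the lower contig against that of the higher contig in each of the 3813 pairs, both on log axes in the authors' level per base. The solid line marks equal levels, the dashed line a 10-fold and the dotted line a 100-fold difference. Red points are the 1051 pairs with 2 or more spliced reads on each strand.

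The Spearman rho of the lower and the higher level was 0.533 across the 3813 pairs, which share libraries. Sorting the levels of each pair into lower and higher makes rho positive even for unrelated levels. This rho therefore cannot tell whether the levels of partners were related. The lower level is also bounded by the higher one, which limits the medians that follow. Where the higher contig was below a level of 1 the median lower level was 0.260 (1159 pairs), from 1 to 10 it was 0.458 (2189 pairs), and from 10 to 100 it was 1.13 (433 pairs). Above 100 it was 0.493, in 32 pairs, a median of 0.376% of the higher level. Of all 636 eligible contigs of at least 200 bases at a level of 100 or more, 4.25% were in a pair, against 3.81% of those below 1 and 6.01% of those from 1 to 10. The share in a pair thus did not climb steadily with the level. Whether reads assigned to the wrong strand contribute to the lower contigs was not tested.

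The limits of the selection cut through a continuous set. The 331 pairs that overlapped by 200 to 219 bases had a median ratio of 3.71, and the 333 pairs left out at 180 to 199 bases had 4.15. Pairs whose higher score was 0.09 or 0.1 numbered 348 with a median ratio of 5.19, and 270 pairs left out at 0.11 or 0.12 had 4.30. The 62 pairs whose longer contig had 4500 to 4999 bases had a median ratio of 7.74, and 43 left out at 5000 to 5499 bases had 8.92.

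By the positions of their contigs, 2230 pairs (58.5%) were nested, 1065 (27.9%) head-to-head and 518 (13.6%) tail-to-tail. Nested pairs were the most unequal, with a median ratio of 4.22 (quartiles 2.01 and 9.25), against 3.32 (1.72 and 7.81) for head-to-head and 2.96 (1.55 and 6.79) for tail-to-tail pairs. Levels were within 2-fold in 24.7% of nested, 31.5% of head-to-head and 35.3% of tail-to-tail pairs. The ranges of the 3 arrangements overlapped widely.

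**Figure D2:**
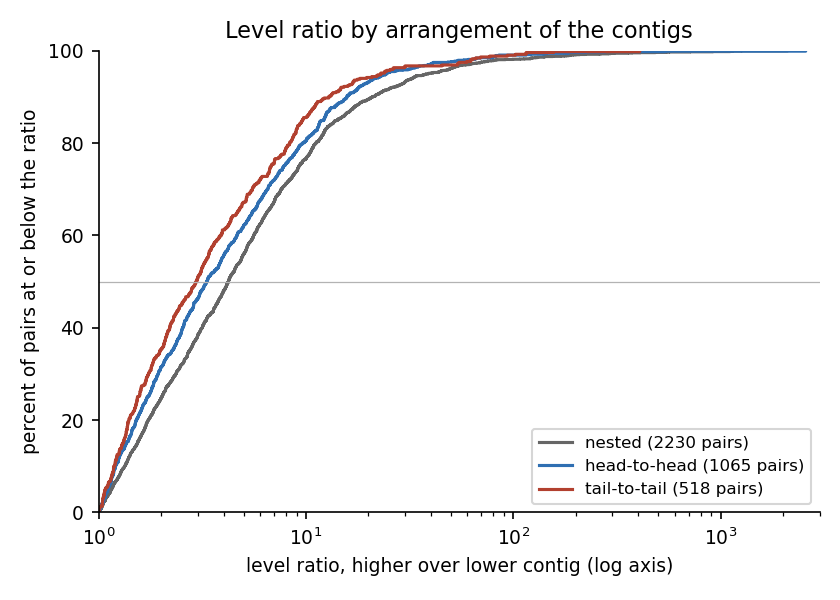
Cumulative share of pairs by level ratio (log axis) for the 3 arrangements of the contigs. The curves cross 50% at 2.96 for tail-to-tail, 3.32 for head-to-head and 4.22 for nested pairs.

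Spliced reads give a view of the strand that does not come from the contig table. They come from the same series of 2 libraries, so they are not an independent sample. A contig was counted as spliced when junctions on its own strand with an end within 5 bases of it carried 2 or more reads in R1 and R2 together. Of the 159356 eligible contigs of 200 bases or more, 46.4% were spliced in this sense. The share was 75.9% for the 3485 contigs that were the higher one of a pair and 32.8% for the 3702 that were the lower one. Median lengths of these contigs were 888 and 479 bases. Both strands were spliced in 1051 pairs (27.6%), the higher strand alone in 1871 (49.1%), the lower alone in 208, and neither in 683 (17.9%).

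The spliced share differed with the level. Among lower contigs the spliced share was 13.4% below a level of 0.3, 33.8% from 0.3 to 1, 61.0% from 1 to 3 and 88.2% from 3 to 10. Contigs in no pair had 10.1%, 37.2%, 87.1% and 96.5% in the same ranges. From 1 to 3, the lower contigs thus stood below the unpaired contigs, while the higher contigs of pairs stood at 83.9%. Lower contigs in that range had a median length of 738 bases against 500 for those in no pair. All 24 lower contigs from 10 to 30 and all 7 at 30 or more were spliced.

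**Figure D3:**
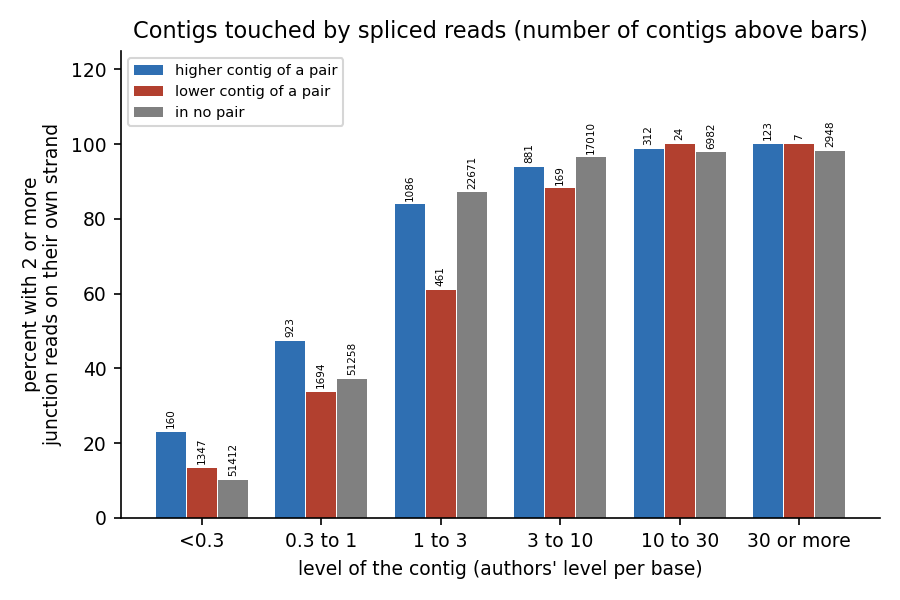
Percent of contigs with 2 or more spliced reads on their own strand, by level, for the higher and the lower contigs of pairs and for eligible contigs of at least 200 bases in no pair. From a level of 1 to 3 the lower contigs reach 61.0%, below the 83.9% of higher contigs and the 87.1% of contigs in no pair.

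The strand with the higher level was also the strand with more spliced reads in 2698 of the 3117 pairs where these could be compared, or 86.6%. Reads were summed over whole contigs, and longer contigs can be touched by more junctions. Median lengths were 952 bases for the higher and 492 for the lower contig, and the lower was the shorter in 69.6% of pairs. Whether length contributes to the 86.6% was not tested. With R1 alone the share was 87.7% and with R2 alone 87.3%. In 1014 pairs spliced on both strands, with unequal reads in each library, R1 and R2 put the same strand ahead in 920, or 90.7%. Pairs spliced on both strands had a median ratio of 3.27 and a median lower level of 0.850, and the others had 4.04 and 0.317.

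Genes were named from the lengths of 2 consecutive introns and the exon between them, which do not depend on the genome build. Both contigs received a gene in 344 pairs (9.02%), 1 contig in 2166 (56.8%) and neither in 1303 (34.2%). Where 1 contig was named it was the higher one in 1951 of the 2166 pairs, or 90.1%. Names need spliced reads, which touched fewer of the lower contigs, so this share is not separate from the naming rule. The 344 pairs reduced to 300 gene pairs of 588 genes, and both genes were protein-coding in 270 of them. The unnamed contigs are not thereby unannotated, since a contig in a single-exon gene, or with too few spliced reads, could not be named.

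The annotation on GRCm38 places 168 of the 300 gene pairs head-to-head, 122 tail-to-tail and 10 nested. Contigs are pieces of transcripts, and they had the same arrangement as the annotated genes in 192 gene pairs and the contrary one in 10. Exons of both genes overlap in the annotation in 215 pairs (71.7%), by a median of 327 bases. The median contig overlap over the 300 was 436 bases, and the contig overlap was longer than the annotated exon overlap in 228. The 327 bases cover only the 215 pairs with an annotated overlap, so these medians are not of the same pairs. Contigs also had to overlap by a set minimum to form a pair. Every gene pair with no annotated exon overlap, or one below that minimum, is therefore among the 228 by the selection. Of 10671 genes at 1 TPM or more in both replicates, 31.7% have an exon that overlaps an exon of an opposite-strand gene. For genes of the named gene pairs the share was 79.3% (447 of 564). It was 45.0% (674 of 1497) for genes named on a contig that faced an unnamed one, and 27.6% (2070 of 7502) for genes named only on contigs in no pair. The 1497 genes can include some that also stood in a gene pair elsewhere. Genes of pairs were selected by overlapping contigs and named from the same annotation. Their higher shares are thus not separate from the selection.

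Gene levels put the same partner ahead as contig levels in most gene pairs. TPM was listed for both genes of 293 pairs, and 276 had both genes at 1 TPM or more in both replicates. The median TPM ratio of the more to the less abundant gene was 3.26 in replicate 1 and 3.01 in replicate 2. The same gene was ahead in both replicates in 273 of 293 pairs, and the log2 TPM ratio of a pair differed between replicates by a median of 0.31. The gene with the higher contig level had the higher mean TPM in 219 of 293 pairs, or 74.7%, with 75.8% in replicate 1 and 72.4% in replicate 2. Order was shared in 29 of 35 pairs whose levels were 10-fold or more apart and in 68 of 104 within 2-fold. The Spearman rho of the log ratios was 0.616 across the gene pairs, which share libraries. TPM covers a whole gene while a contig covers a part of it, and no source used here tells whether the gene quantification used strand.

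**Figure D4:**
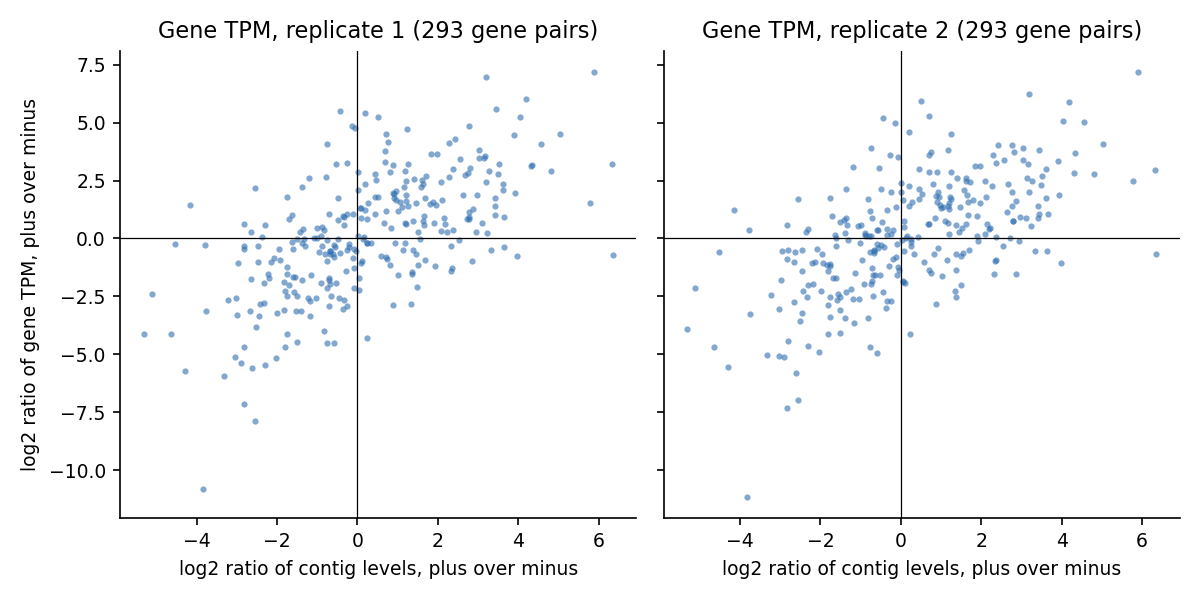
Log2 ratio of gene TPM, plus-strand over minus-strand gene, against the log2 ratio of contig levels for 293 gene pairs in each replicate. Most points lie at the lower left and upper right, where TPM and level put the same gene ahead (75.8% of pairs in replicate 1 and 72.4% in replicate 2).

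In the 10 pairs with the highest level on their weaker strand, contigs of named genes mostly faced contigs that received no gene. Over all 3813 pairs a gene was likewise named on 1 strand only in 56.8%, so this is not particular to these 10. Coordinates of contigs are on mm9. The highest lower level was 118, on the plus strand of chr6:124864531-124864846, a 316-base contig wholly inside a Ptms contig at 190. Ptms encodes parathymosin, a small acidic nuclear protein, and its gene stood at 1254 and 901 TPM. The facing contig had 29 spliced reads in R1 and 11 in R2, against 1588 and 716 on the Ptms strand. No opposite-strand exon is annotated for Ptms.

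The plus contig chr15:82983985-82985153, at 64.1, faced Cyb5r3, the NADH-cytochrome b5 reductase, at 283. It carried 30 and 27 spliced reads in R1 and R2, and the Cyb5r3 contig 981 and 1380. An antisense gene, Gm49463, is annotated over 243 exonic bases of Cyb5r3. A 312-base contig at 46.1 faced Hsp90ab1, a cytosolic HSP90 chaperone, at 84.4, and ended at the same base as the Hsp90ab1 contig, at position 45707518 of chromosome 17. It had 9 and 14 spliced reads, against 6210 and 4516 for Hsp90ab1. In these 3 pairs, spliced reads on the weaker strand were seen in both libraries but were a small share of those on the other.

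Cyp3a11, a cytochrome P450 of drug metabolism, was a pair in which the unnamed strand had the higher level. Its facing contig chr5:146691194-146691445 stood at 43.3 over 252 bases, and the Cyp3a11 contig at 34.3 over its whole length of 3990 bases. Spliced reads ran the other way, with 3 in R1 and 1 in R2 on the plus strand against 7832 and 10343 on that of Cyp3a11. The order by level and the order by spliced reads therefore disagreed here.

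Mat1a, which makes S-adenosylmethionine, had a contig at 52.1 and 9274 and 6503 spliced reads, and the 351-base contig inside it had a level of 28.5 with 2 and 3 reads. Fabp1, the liver fatty acid-binding protein, stood at 135 and its facing contig of 663 bases at 27.7, with no spliced read in R1 and 4 in R2. A count of 0 reads allows up to 3. In the pair at chr1:132748493-132748830 neither contig received a gene, with levels of 48.0 and 26.8. The same minus contig, with 18 and 8 spliced reads, also overlapped a contig of Pigr, the polymeric immunoglobulin receptor, by 776 bases, and this pair ties with the former at the lower level of 26.8. The Pigr contig, chr1:132746522-132748464, stood at 150 with 3332 and 2676 spliced reads, and ended just before the unnamed plus contig began. For Mat1a and Fabp1 no opposite-strand exon is annotated.

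Both partners were named in 3 of these 10 pairs, against 9.02% of all pairs. Pex6, an ATPase of peroxisome biogenesis, met Gnmt, the glycine N-methyltransferase, tail-to-tail over 396 bases, with contig levels of 38.8 and 761. Spliced reads were 3507 and 4116 on the Pex6 strand and 90153 and 98213 on the Gnmt strand, in R1 and R2. Gene TPM was 84.6 ± 7.24 (SD, n = 2) for Pex6 and 4210 ± 3.27 (SD, n = 2) for Gnmt. Their annotated exons do not overlap on GRCm38.

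Ssr4, a subunit of the translocon-associated protein complex, and Idh3g, a subunit of mitochondrial isocitrate dehydrogenase, had near-equal contig levels of 38.9 and 33.9. Their TPM was further apart, at 311 ± 75.3 for Ssr4 and 124 ± 21.2 for Idh3g (SD, n = 2). The Idh3g contig covered 333 bases near its start, inside the Ssr4 contig, and carried 233 and 407 spliced reads against 4042 and 5561. Annotated exons of the genes do not overlap, and their starts lie 126 bases apart.

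Romo1, a small protein of the inner mitochondrial membrane, and Nfs1, the cysteine desulfurase of iron-sulfur cluster assembly, had levels of 47.3 and 32.9 in head-to-head contigs. Spliced reads were 5228 and 5743 for Romo1 and 319 and 487 for Nfs1. Their TPM was 212 ± 7.22 and 59.0 ± 1.32 (SD, n = 2). Romo1 was ahead in reads in R1 and R2 and in TPM in replicates 1 and 2, and the exons share 148 annotated bases.

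**Figure D5:**
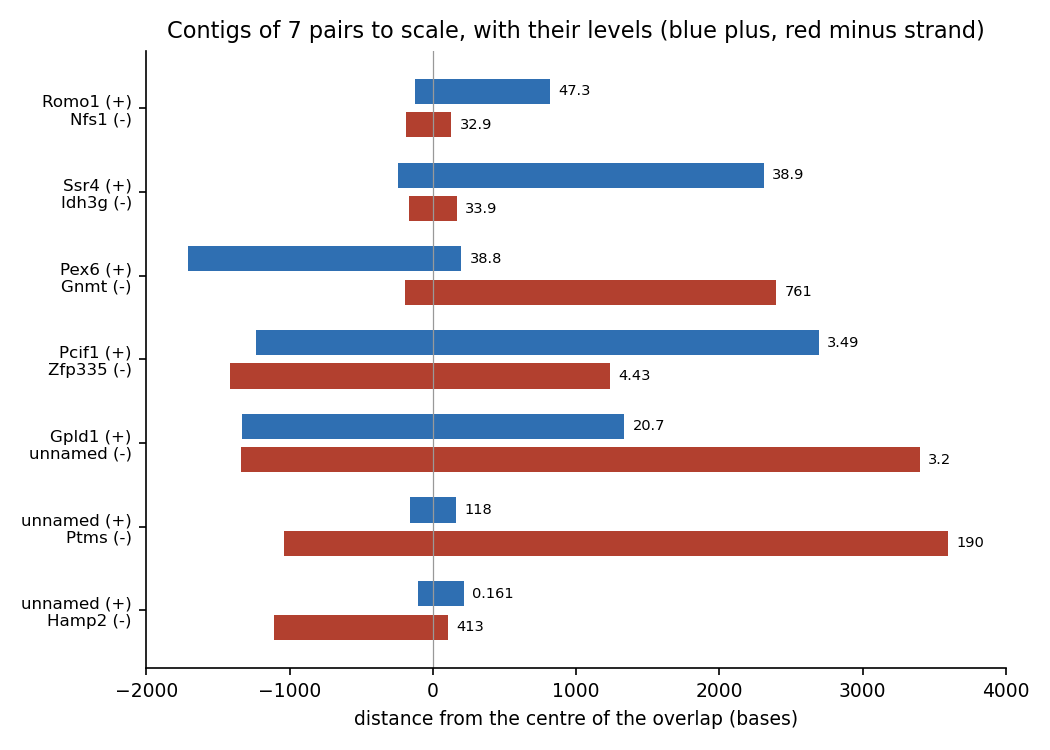
Contigs of 7 pairs drawn to scale around the centre of their overlap, plus strand in blue and minus strand in red, with the level of each contig at its right end. The arrangements run from the head-to-head Romo1 and Nfs1 contigs and the tail-to-tail Pex6 and Gnmt contigs to short contigs lying inside a longer one, as for Ptms.

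The strands with most spliced reads on the lesser side were convergent or divergent gene pairs. Btd, the biotinidase, and Hacl1, a peroxisomal 2-hydroxyacyl-CoA lyase, had levels of 13.6 and 31.0 and spliced reads of 1481 and 1282 against 5257 and 4353. Gene TPM was 83.0 ± 8.53 and 519 ± 28.5 (SD, n = 2). Macrod1, an ADP-ribose hydrolase, and Otub1, a deubiquitinase, met tail-to-tail over 233 bases with almost the same spliced reads, 1123 and 1360 against 1090 and 1273, at levels of 13.4 and 22.0. Here the order of TPM was the reverse of the order of levels, with 97.0 ± 1.29 for Macrod1 and 49.7 ± 4.12 for Otub1 (SD, n = 2).

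Adck5, a kinase-like gene, and Cpsf1, a subunit of the cleavage and polyadenylation factor, formed 2 contig pairs, with 968 and 1507 against 976 and 1286 spliced reads in the first. The strand ahead changed between R1 and R2. Their contig overlaps were 773 and 1040 bases, while only 14 exonic bases are shared in the annotation. Tmem150a and Rnf181, a ubiquitin ligase, overlapped by 487 bases at 67.0 and 15.5, with 49 annotated shared bases. Prelid1, a mitochondrial lipid transfer protein, and Rab24, a small GTPase, overlapped by 2033 bases, against 1258 annotated. Their levels were 23.1 and 14.3 and their TPM 352 ± 4.97 and 27.2 ± 1.85 (SD, n = 2), a wider gap in TPM than in level.

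Ctsa, the lysosomal cathepsin A, and Pltp, the phospholipid transfer protein, stood at 18.7 and 17.1 over an overlap of 250 bases. Spliced reads were 1241 and 1807 against 617 and 1160. Tcp1, a subunit of the cytosolic chaperonin, and Mrpl18, a mitochondrial ribosomal protein, had levels of 14.2 and 12.0. Spliced reads were 608 and 511 for Tcp1 and 626 and 870 for Mrpl18, so the order by reads went against the order by level in each library.

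Among pairs with a lower level at or above the median, the 10 nearest to equal all lay below a level of 2. Lower levels were low over all pairs, with a 75th percentile of 0.743 and a 95th percentile of 3.13. These pairs therefore do not tie equal levels to low ones. Rpl18, a ribosomal protein gene, and Sphk2, a sphingosine kinase, had contig levels of 1.84 and 1.83. The whole genes were at 331 ± 70.3 and 61.0 ± 11.5 TPM (SD, n = 2), so equal contig levels did not go with equal TPM. Cebpzos and Cebpz, annotated tail-to-tail, had 0.413 and 0.411, with TPM of 8.75 ± 0.686 and 1.86 ± 0.41 (SD, n = 2). The Ikbke contig and the contig it faced were both at 0.549, and antisense genes are annotated opposite Ikbke at 0 TPM in both replicates. Safb, Gpatch4 and Rmdn1 each faced an unnamed contig at a ratio of 1.01, with no spliced read on the facing strand. The remaining 4 of the 10 pairs nearest to equal had no gene on either strand.

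The 5 most unequal pairs set contigs of named, abundant genes against facing contigs below a level of 1. Ranking by ratio picks a high level against a low one, so these levels are the selection and not a result. Hamp2, a hepcidin gene, stood at 413 and its facing contig at 0.161, a ratio of 2565. Igfbp4, an insulin-like growth factor binding protein, stood at 461 against 0.22, and Vtn, vitronectin, at 757 against 0.604. Adh1, an alcohol dehydrogenase, had 185 against 0.163, and Cyp2d26 352 against 0.317. The facing contigs had 0 spliced reads in both libraries for Hamp2, Vtn, Adh1 and Cyp2d26, and 1 read in R1 for Igfbp4. The scores of the contigs facing Hamp2 and Igfbp4 were 0.1, at the limit of the selection. Gm16559, annotated as antisense to Adh1, was at 0 TPM in both replicates.

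An overlap cannot be longer than the shorter contig, so the 5 longest overlaps could only lie between long contigs. Gpld1, a phospholipase that cleaves lipid anchors of membrane proteins, had a contig at 20.7 that faced one at 3.2 over all of its 2670 bases. The facing contig received no gene, and Mrs2, a mitochondrial magnesium channel at 5.73 and 5.72 TPM, is annotated over 2466 exonic bases of Gpld1. Kin overlapped an unnamed contig by 2567 bases at 1.19 against 2.61. Pcif1, a methyltransferase of the mRNA cap, and Zfp335 shared 2467 bases at 3.49 and 4.43, with 75 and 101 spliced reads against 610 and 853. Bace1, the beta-secretase, faced a contig over 2447 bases at 6.34 against 4.25. Rnf214 is annotated over 975 exonic bases of Bace1 and Gm49338 over 951. Cep250, a centrosomal gene, overlapped an unnamed contig by 2384 bases at 0.651 against 0.7. The gene 6430550D23Rik, at 1.85 and 3.02 TPM, is annotated over 1149 exonic bases of Cep250. Spliced reads on the facing strand were 20 and 39 for Kin and 1 and 9 for Cep250, but 1 and 2 for Gpld1 and 1 and 0 for Bace1.

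Of 10 listed gene pairs known from other work, 5 have no overlapping exons in the annotation used here, so an overlap of their contigs would not follow from it. None of the 10 was found with both partners named, and only 9.02% of all contig pairs had a gene named on both strands. Nr1d1 and Thra, which share 263 annotated exonic bases, were at 63.2 and 91.2 TPM and at 11.4 and 12.8 TPM, but neither was named in a pair. Surf1 and Surf2, neighbours in the surfeit cluster, did form a pair, at 10.6 and 6.31 over 289 bases, with spliced reads of 1393 and 1883 for Surf1 and 136 and 143 for Surf2. Acat2, an acetyl-CoA acetyltransferase, stood at 12.9 against 1.66 for an unnamed contig. Ercc1, a DNA repair endonuclease subunit, stood at 0.459 against 0.798, again for an unnamed contig. Both facing contigs had 0 spliced reads in R1 and R2, so they are not tied to the listed partners Tcp1 and Cd3eap. Both Ercc1 and its annotated partner Cd3eap were expressed, at 7.14 and 8.04 TPM and at 6.24 and 6.50 TPM.

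The mitochondrial genome gave 2 pairs from 3 contigs. The plus contig chrM:9297-10049, at 1.29, overlapped chrM:9283-9612 at 2.33 by 316 bases and chrM:9643-9987 at 1.65 by 345 bases. The minus strand was the higher in both.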

How the data were processed

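Liver RNA of 2 libraries was measured. The deposited contig table, on mm9 per the file name, gives a signal level per contig, a score and a summed value. Level times length over the summed value was 0.0465 to 0.0488, so the level is per base. No source used here tells how the authors computed the deposited score. The deposited junction table gives read counts of R1 and R2. The deposited gene tables give TPM and estimated counts (expected counts, not rounded here) on mm10 per the file headers. Pairs, ratios and shares were computed in Python 3.11.15 with pandas 2.3.3 and scipy 1.17.1, and the pair finding and naming were tested on simulated data. A chain match needed 2 introns and an exon of up to 20000 bases equal to GENCODE M21. It was found at 113123 places, against 297 with the exon length off by 1. Of 2578 contigs named, 16 were touched by more than 1 gene and took the one with most reads. No coordinate was moved between builds.

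Named pairs were the 10 with the highest lower level, the 10 nearest to equal, the 5 most unequal, the 5 longest overlaps, the 10 with most spliced reads on the lesser strand, and a list of known pairs. A few of these pairs are not reported here. Members, lists and rules were chosen with earlier results of these data known. Alternatives concerned score, length, overlap, reads, introns and replicates. With 1 group there was no test, and no paired analysis.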

Additional observations from a re-analysis of the deposited data

How the results depend on the processing

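The number of pairs was 2124 with a score of at most 0.01 and 1455 with an overlap of 400 bases or more. The median ratio was 3.58 with a score of at most 0.05, 3.39 with at most 0.01, 3.22 for contigs shorter than 2000 bases and 3.99 with no length limit. Levels within 2-fold made up 29.5% with a score of at most 0.01, 32.3% for contigs shorter than 2000 bases and 25.2% with an overlap of 400 bases or more. Levels 10-fold or more apart made up 19.2% and 17.0% at the score limits of 0.05 and 0.01, 15.8% for contigs shorter than 2000 bases, 23.2% with no length limit and 19.5% with an overlap of 400 bases or more. The cause was not tested. Spliced reads on both strands were found in 34.0% of pairs with at least 1 read, 14.2% with at least 10, 21.7% without library R1 and 21.6% without library R2, where fewer reads reach the minimum. More spliced reads on the strand of the higher level were found in 89.2% with at least 10 reads and 87.7% without library R2. A gene was named on both strands in 187 pairs by 1 intron of a length found in a single gene. The gene TPM ratio was 3.01 without replicate 1 and 3.26 without replicate 2, which are single libraries. The other alternatives moved these values by less than their 95% interval, or counts by less than 1.5-fold. Exact binomial intervals cover counting over pairs only, and contigs that share a pair are not independent. No paired analysis was possible because there is 1 group. Contig levels have no replicates, so their error is unknown.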
